A study of Mus musculus with 10 samples.

Results

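Expression of 44 monocyte and macrophage genes was examined in mouse bone marrow colonies transformed with BCR-ABL, a constitutively active tyrosine kinase that drives human leukaemias. All array probes whose transcript belongs to a listed gene were taken, and 61 probes of 43 genes were found among 56605 probes. No probe was matched to Clec7a. In every group, marrow of 6-week-old donors was exposed to retrovirus, plated 24 h later in methylcellulose free of growth factors, and sampled as BCR-ABL+ colonies after 10 days. The mutant groups were 4 samples lacking CDK6 (Cdk6-/-) and 4 samples of Cdk6-K43M, a mutant CDK6 without kinase activity. Each was hybridised in Cy5 against the same pool of 4 wild-type (Cdk6+/+) RNAs in Cy3, and for each genotype 1 more array held the pool of its 4 RNAs with the dyes exchanged. The series design calls the samples biological replicates. The number of colonies or donors behind a sample, the viral promoter and the cell type infected are not given in the sources used here.

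Macrophages and monocytes are phagocytes of the myeloid lineage. They recognise particles through scavenger, lectin, complement and Fc receptors, signal through adaptors that carry ITAM motifs, and degrade what they engulf with lysosomal proteases. Their growth and survival depend on the receptor of colony-stimulating factor 1. Transformation of marrow by BCR-ABL without growth factors usually gives colonies of B-lineage precursors, in which most of these genes are not a hallmark of the main cell type. In RNA from whole colonies, fewer macrophages and less RNA per macrophage cannot be told apart.

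All values are log2 ratios of a mutant over the wild-type pool, with the sign of the swapped arrays reversed, so that negative values are below wild type. In the mutant channel 46.9 to 49.9% of probes were well above background. Cdk6 itself was fitted at -0.41 in Cdk6-/- (limma with Benjamini-Hochberg adjustment, adjusted p = 0.0368) and at 0.35 in Cdk6-K43M (adjusted p = 0.031). Its single Cdk6-/- samples ranged from -0.40 to 0.0024, so the probe still gave signal there, and where it lies with respect to the deletion was not checked. All 15 B-lineage markers examined were above background, among them Cd79a, Pax5 and Igll1. Of the 44 genes, 35 passed the filter on dim probes, and Msr1, Cd163, Vsig4, Fcgr1, Ccr2, Vcam1, C1qa and Mertk did not. Mrc1 and Cx3cr1 passed through the wild-type channel alone, which favours a lower value in the mutants.

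In Cdk6-/- colonies, 7 of the 35 genes fell and none rose at an adjusted p under 0.05, where 3.85% of all 22008 genes tested fell and 3.39% rose. The 7 were Cd5l, Lgals3, Trem2, Ctsl, C1qc, Mrc1 and Apoe. The other 28 did not pass, and 24 of the 35 had an unadjusted p under 0.05 against 24.8% of all genes in either direction. Fitted values were below 0 in 34 of 35 genes, with a median of -0.82 beside 0.0014 over all genes. All 4 single samples were below 0 in 29 genes. Replicate 2 was the highest of the 4 in 27 genes, and replicate 4 was the lowest in 22.

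**Figure D1:**
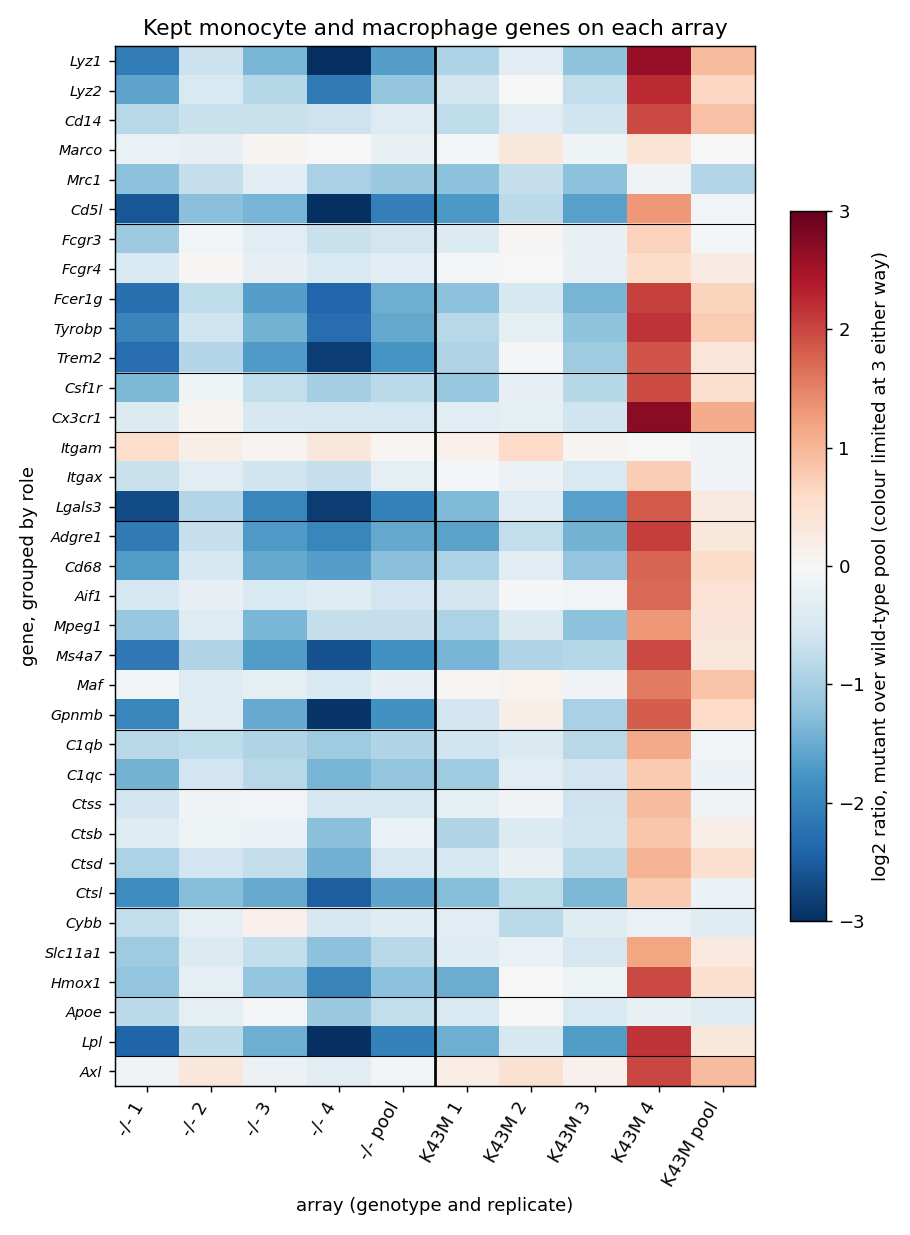
Log2 ratio of each of the 35 genes above background (rows, grouped by role) on each of the 10 arrays (columns); blue is below and red above the wild-type pool, with colour limited at 3 either way. The Cdk6-/- columns are mostly blue, Cdk6-K43M replicates 1 to 3 are pale to medium blue, and Cdk6-K43M replicate 4 is red in 31 of 35 rows.

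Among the scavenger receptors and lysozymes, Cd5l and Mrc1 fell in Cdk6-/-. Cd5l encodes a secreted macrophage protein that promotes macrophage survival. It was at -2.58, -1.26, -1.39 and -3.54 in Cdk6-/- replicates 1 to 4 and at -2.06 in their pool. In Cdk6-K43M replicates 1 to 4 it was at -1.73, -0.80, -1.62 and 1.29, with -0.09 in their pool. All 4 Cdk6-/- samples lay below the wild-type pool, as did 3 of the 4 Cdk6-K43M samples, and the groups overlapped. The fitted change was -2.05 (SE 0.495, adjusted p = 0.037), or 4.15-fold lower, in Cdk6-/- and -0.48 in Cdk6-K43M.

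Mrc1 encodes the macrophage mannose receptor. It stood at -1.23, -0.71, -0.33 and -0.96 in the Cdk6-/- samples and at -1.24, -0.72, -1.23 and -0.11 in the Cdk6-K43M samples. Their pools gave -1.12 and -0.88. Every array was below 0 in both genotypes, and the groups overlapped. The Mrc1 probe was well above background in 2 of the 4 single samples of each mutant and in all 10 wild-type channels. It thus passed the filter through the wild-type channel alone, which favours a fall. The fitted changes were -0.93 (SE 0.189, adjusted p = 0.0215) in Cdk6-/- and -0.89 (SE 0.189, adjusted p = 0.0093) in Cdk6-K43M, and the difference between the mutants was -0.02 (95% interval -0.65 to 0.61). The remaining genes of this group did not pass in Cdk6-/-, with fitted values of -1.61 for Lyz1 and -1.17 for Lyz2, the bactericidal lysozymes, -0.47 for Cd14, the lipopolysaccharide co-receptor, and -0.16 for the scavenger receptor Marco. Lyz1 and Lyz2 are near-identical in sequence, so their probes may read both.

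Above background in the Fc receptor group were 2 receptor chains and their signalling partners. Trem2, a lipid-sensing receptor that signals through Tyrobp (DAP12), fell in Cdk6-/-. Its values were -2.28, -0.88, -1.70 and -2.85 in the single samples and -1.77 in the pool. In Cdk6-K43M they were -0.90, -0.06, -1.07 and 1.88, with 0.36 in the pool. The first 3 Cdk6-K43M samples were below 0 and lay partly within the Cdk6-/- range, and replicate 4 was far above. Fitted values were -1.81 (SE 0.445, adjusted p = 0.0395; 3.52-fold lower) in Cdk6-/- and 0.13 in Cdk6-K43M. Tyrobp was fitted at -1.43 and Fcer1g, the common gamma chain of Fc receptors, at -1.52 in Cdk6-/-, with adjusted p of 0.0981 and 0.0944. The receptors Fcgr3 (-0.55) and Fcgr4 (-0.27) did not pass either.

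Of the integrin and adhesion genes, Lgals3 fell in Cdk6-/-. It encodes galectin-3, a sugar-binding protein abundant in macrophages. The single samples read -2.69, -0.87, -1.96 and -2.84 and the pool -2.04. Cdk6-K43M replicates 1 to 4 read -1.33, -0.39, -1.64 and 1.85 and their pool 0.26. Replicate 2 was the least reduced sample of Cdk6-/- and lay above 2 of the Cdk6-K43M samples. The change in Cdk6-/- was -1.98 (SE 0.509, adjusted p = 0.0463), which is 3.94-fold lower, and that in Cdk6-K43M was -0.15 (adjusted p = 0.876). Itgam (CD11b) was the single gene with a positive fitted value in Cdk6-/-, 0.16 on its brighter probe and -0.23 on its dimmer one. Itgax (CD11c) was fitted at -0.50.

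C1qc and Ctsl fell among the complement and protease genes. C1qc encodes a chain of C1q, which macrophages secrete and which starts the classical complement pathway. It was at -1.41, -0.58, -0.83 and -1.39 in the Cdk6-/- samples and at -1.06, -0.33, -0.58 and 0.79 in the Cdk6-K43M samples. The pools gave -1.18 and -0.17. The groups overlapped, with 3 Cdk6-K43M samples below 0. Fitted changes were -1.08 (SE 0.25, adjusted p = 0.0323) and -0.27, and those of C1qb were -0.88 (adjusted p = 0.0697) and -0.15.

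Ctsl encodes cathepsin L, a lysosomal cysteine protease. Its Cdk6-/- samples read -1.90, -1.28, -1.51 and -2.48 with -1.58 in the pool, and its Cdk6-K43M samples -1.28, -0.77, -1.34 and 0.77 with -0.18 in the pool. No Cdk6-/- sample was above -1.28, and 2 of the Cdk6-K43M samples lay at about or below that level. The fitted change of -1.65 (SE 0.314, adjusted p = 0.017; 3.13-fold lower) had the smallest adjusted p of the 35 genes in this comparison. The other cathepsins did not pass, at -0.68 for Ctsd, -0.41 for Ctss and -0.32 for Ctsb.

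Apoe was the lipid gene that fell. It encodes apolipoprotein E, through which macrophages export cholesterol. It was at -0.79, -0.30, -0.05 and -1.11 in Cdk6-/- and at -0.45, -0.01, -0.46 and -0.23 in Cdk6-K43M, and the groups overlapped closely. Its pools gave -0.75 and -0.37. Its fitted change of -0.64 (SE 0.15, adjusted p = 0.0348) in Cdk6-/- was the smallest of the 7. In Cdk6-K43M its fitted change was -0.34 (adjusted p = 0.142). Lpl, the secreted lipoprotein lipase, read -2.41, -0.79, -1.46 and -3.16 in Cdk6-/- and -1.46, -0.47, -1.68 and 2.16 in Cdk6-K43M, and -2.04 and 0.33 in their pools. With a fitted value of -1.88 it was as far down as the genes that passed, but its adjusted p was 0.0782. The fit takes the spread of a gene over both genotypes, and the SD of Lpl was 1.04 in Cdk6-/- and 1.76 in Cdk6-K43M. Without Cdk6-K43M replicate 4 the limma adjusted p of Lpl in Cdk6-/- was 0.025. Its 2 dimmer probes were fitted at -1.21 and -0.86.

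**Figure D2:**
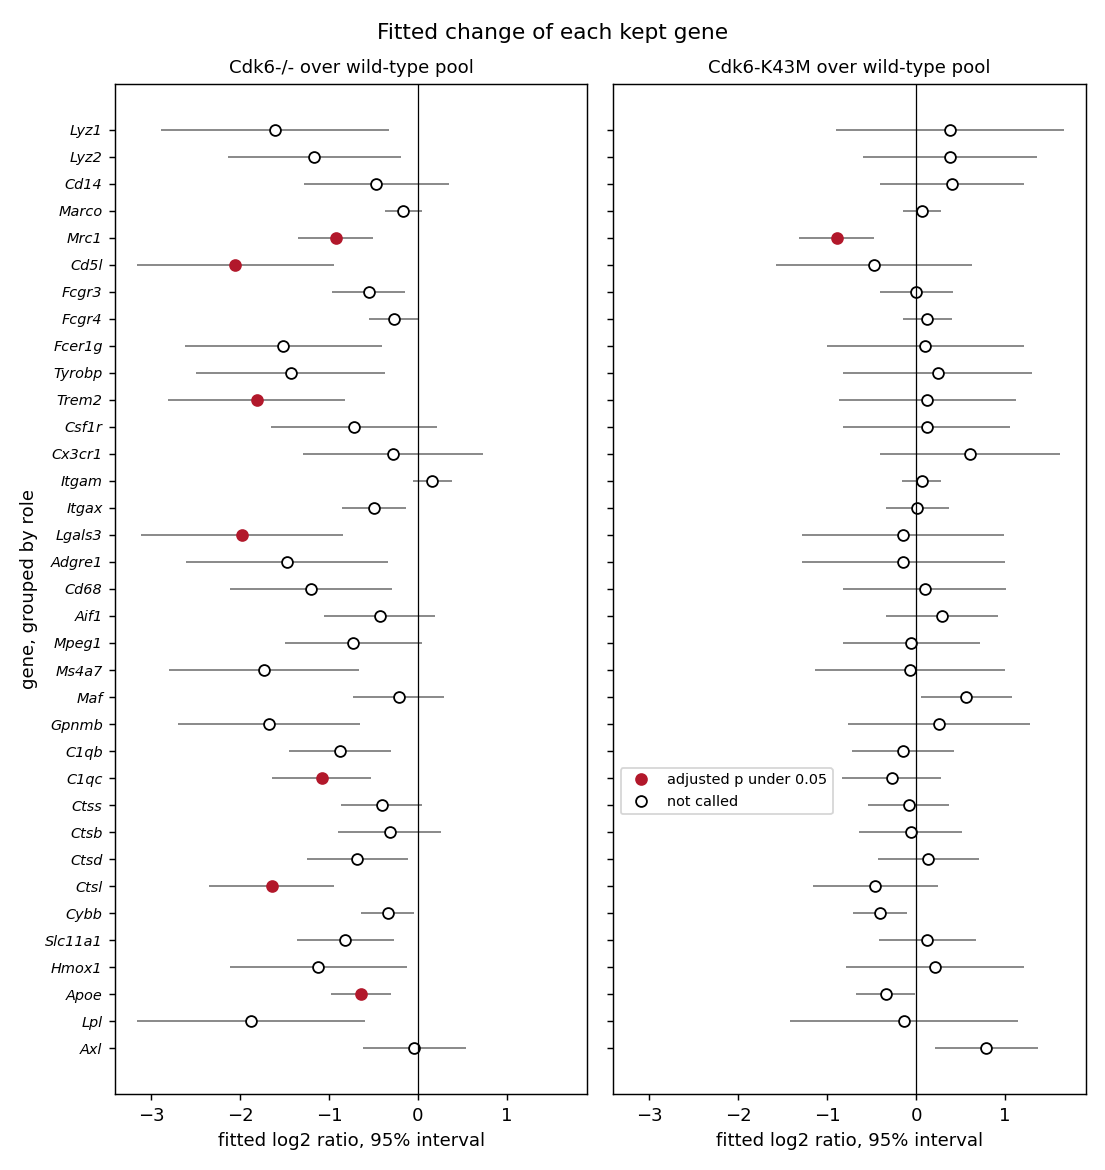
Fitted log2 ratio of each of the 35 genes (points) with its 95% interval (lines, in log2 units) in Cdk6-/- (left) and Cdk6-K43M (right); filled points passed an adjusted p of 0.05. In Cdk6-/- 34 points lie below 0 and 7 are filled, and in Cdk6-K43M the points lie around 0 and Mrc1 alone is filled.

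The remaining groups had no gene past the threshold in Cdk6-/-. Ms4a7, a membrane protein of mature macrophages, had the largest value among the surface and identity markers. It was at -2.15, -0.89, -1.67 and -2.61 in Cdk6-/- and at -1.40, -0.91, -0.86 and 1.97 in Cdk6-K43M, and at -1.82 and 0.35 in their pools. The fitted value in Cdk6-/- was -1.73 (adjusted p = 0.0581). The other surface markers spanned -1.67 for Gpnmb, a lysosomal glycoprotein, to -0.22 for the transcription factor Maf, with Adgre1, a classical macrophage marker, at -1.48 and Cd68 at -1.20.

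Csf1r, the receptor of colony-stimulating factor 1, was at -1.35, -0.13, -0.75 and -1.002 in Cdk6-/- and at -1.14, -0.24, -0.86 and 1.95 in Cdk6-K43M, with -0.79 and 0.47 in their pools. Its fitted value of -0.72 in Cdk6-/- had an adjusted p of 0.319. A dimmer Csf1r probe was fitted at 0.04, so the probes disagreed. Hmox1, the haem-degrading oxygenase, was at -1.18, -0.26, -1.18 and -2.01 in Cdk6-/- and at -1.48, -0.01, -0.15 and 1.97 in Cdk6-K43M. Its pools gave -1.22 and 0.49, and its fitted value in Cdk6-/- was -1.12 (adjusted p = 0.157). Slc11a1, the phagosomal metal transporter, was fitted at -0.82 and Cybb, the catalytic subunit of the phagocyte oxidase, at -0.34.

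How many genes passed in Cdk6-/- depended on single arrays. Without Cdk6-/- replicate 1 the count was 1 (Ctsl), where 331 of all 22008 genes fell, against 848 in the main fit. Without Cdk6-/- replicate 4 it was 3 (Apoe, Ctsl and Mrc1), where 671 of all genes fell. With slide as a block it was 1 (Mrc1), where 330 of all genes fell. Without the swapped Cdk6-/- array it was 0, where 44 genes fell over the whole array. Leaving out Cdk6-K43M replicate 4 raised it to 20, including the same 7, where 4.79% of all genes fell. The median stayed between -0.91 and -0.76 when each sample was left out in turn.

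Promoter windows of the 7 genes were read from RefSeq (GRCm38.p6), because these genes fell in the same colonies. Windows of 250 bases before to 50 after the start were matched for 33 of the 44 genes (38 windows). The letters GAGGAAG, which hold the core recognised by PU.1, the master regulator of the myeloid lineage, were sought on both strands. They were present in 12 of 38 windows (31.6%), and in 13.6% of 32851 windows in the whole table. Of the 27 genes with a window that passed the filter on dim probes, 10 held them. These included Axl, Ctss, Fcgr3, Fcgr4, Itgam and Marco, which did not pass in Cdk6-/- and had fitted values from -0.55 to 0.16 there. Among the 7, Ctsl, Lgals3 and Apoe did not hold them, and C1qc, Cd5l, Mrc1 and Trem2 did. Their 250 upstream bases are given 5′ to 3′ along the gene, at chr4:136892915-136893164 (minus strand) for C1qc, chr3:87357631-87357880 (plus) for Cd5l, chr2:14229164-14229413 (plus) for Mrc1 and chr17:48346151-48346400 (plus) for Trem2. Capitals mark each match.
C1qc: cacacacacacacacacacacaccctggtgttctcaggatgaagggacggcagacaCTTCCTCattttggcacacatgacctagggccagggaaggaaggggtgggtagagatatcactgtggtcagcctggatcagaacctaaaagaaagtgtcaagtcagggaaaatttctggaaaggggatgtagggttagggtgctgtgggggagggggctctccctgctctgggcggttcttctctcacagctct
Cd5l: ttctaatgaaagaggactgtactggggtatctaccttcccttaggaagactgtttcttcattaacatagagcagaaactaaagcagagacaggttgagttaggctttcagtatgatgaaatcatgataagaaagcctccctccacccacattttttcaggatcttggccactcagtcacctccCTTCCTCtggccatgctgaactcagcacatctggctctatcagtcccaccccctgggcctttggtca
Mrc1: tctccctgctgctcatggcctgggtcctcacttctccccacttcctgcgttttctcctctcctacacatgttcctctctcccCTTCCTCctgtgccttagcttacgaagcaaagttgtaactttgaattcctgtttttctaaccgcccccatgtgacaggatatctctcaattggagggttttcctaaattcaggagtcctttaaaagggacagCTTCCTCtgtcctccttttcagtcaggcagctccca
Trem2: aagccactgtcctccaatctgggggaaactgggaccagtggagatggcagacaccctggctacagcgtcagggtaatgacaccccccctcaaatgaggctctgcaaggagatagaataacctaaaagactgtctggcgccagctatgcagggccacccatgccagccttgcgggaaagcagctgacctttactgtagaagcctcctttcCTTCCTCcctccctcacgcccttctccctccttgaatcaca
Every match in these lines is read on the opposite strand, and Mrc1 holds 2. The C/EBP letters TTGCNNAA were in 15.8% of the 38 windows and 10.8% of all, the AP-1 letters TGANTCA in 15.8% and 7.81%, and the E-box CACGTG in 5.26% and 7.15%. A match describes the letters in the window and was not tested for binding.

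In Cdk6-K43M colonies 1 of the 35 genes, Mrc1, fell and none rose, where 10.3% of all genes fell and 9.79% rose. Mrc1 passed the filter through the wild-type channel alone, which favours a fall. At an unadjusted p under 0.05 the limma fit held 5 of the 35, against 33.4% of all genes. The median fitted value was 0.07 beside -0.01 over all genes, with 14 genes below 0 and 21 above. Axl, a receptor for apoptotic cells, had the highest fitted value, 0.79 (adjusted p = 0.0584). It was at 0.23, 0.46, 0.13 and 2.00 in Cdk6-K43M replicates 1 to 4 and at -0.11, 0.34, -0.18 and -0.33 in Cdk6-/-. The pools of Cdk6-K43M and Cdk6-/- gave 0.95 and -0.09. All Cdk6-K43M samples were above the wild-type pool, replicate 4 by far the most, and replicate 2 of Cdk6-/- lay among the lower Cdk6-K43M samples. Cybb was fitted at -0.41 (adjusted p = 0.0596), with all 5 Cdk6-K43M arrays below 0.

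Behind this median stood 1 sample, Cdk6-K43M replicate 4. The median over the 35 genes was -0.76, -0.28 and -0.74 in replicates 1 to 3 and 1.57 in replicate 4, while over all genes the median of each single sample lay between -0.02 and 0.01. Replicate 4 was above 0 in 31 genes, the highest of its group in 33, and the highest of all 8 single samples in 32. In 25 genes replicates 1 to 3 were all below 0 and replicate 4 above. It exceeded each of the other 3 by more than 1 in 27 of the 35 genes, which was so in 348 of all genes tested (1.58%). The spread between samples followed, with a median SD of 0.988 in Cdk6-K43M and 0.441 in Cdk6-/- for these genes, and of 0.148 and 0.141 over all genes.

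The genes furthest up in replicate 4 came from several roles. Cx3cr1, the fractalkine receptor of monocytes, read -0.34, -0.28, -0.60 and 2.72 in Cdk6-K43M, and Lyz1 read -0.93, -0.34, -1.20 and 2.62. Among the 4 Cdk6-K43M samples only replicate 4 was above the wild-type pool in either gene, and the Cdk6-K43M pool array gave 1.12 and 0.95. The Cx3cr1 probe was well above background in 1 of these 4 samples, so its low ratios there are near background. Lyz2 (2.24), Tyrobp (2.16), Lpl (2.16), Adgre1 (2.07), Fcer1g (2.06) and Axl (2.0009) also passed 2 in replicate 4. Mrc1 (-0.11), Cybb (-0.20), Apoe (-0.23) and Itgam (-0.0029) were not above 0 there.

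Genes that missed the filter are described by the arrays on which a probe was well above background, since their wild-type channel was at background on most arrays and a ratio against it is not a measured fold. The Ccr2 probe, for the receptor that draws monocytes from marrow to tissue, was above background in Cdk6-K43M replicate 4 and in the Cdk6-K43M pool, in no other mutant array and in 0 of 10 wild-type channels. The Fcgr1 and C1qa probes were above background in the same 2 mutant arrays alone and in 2 of 10 wild-type channels each. Both probes of the scavenger receptor Msr1 were above background in replicate 4, and 1 of them also in the Cdk6-K43M pool and Cdk6-/- replicate 2. Cd163, Vsig4 and Mertk were above background on no array, and Vcam1 in Cdk6-K43M replicate 2 only.

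**Figure D3:**
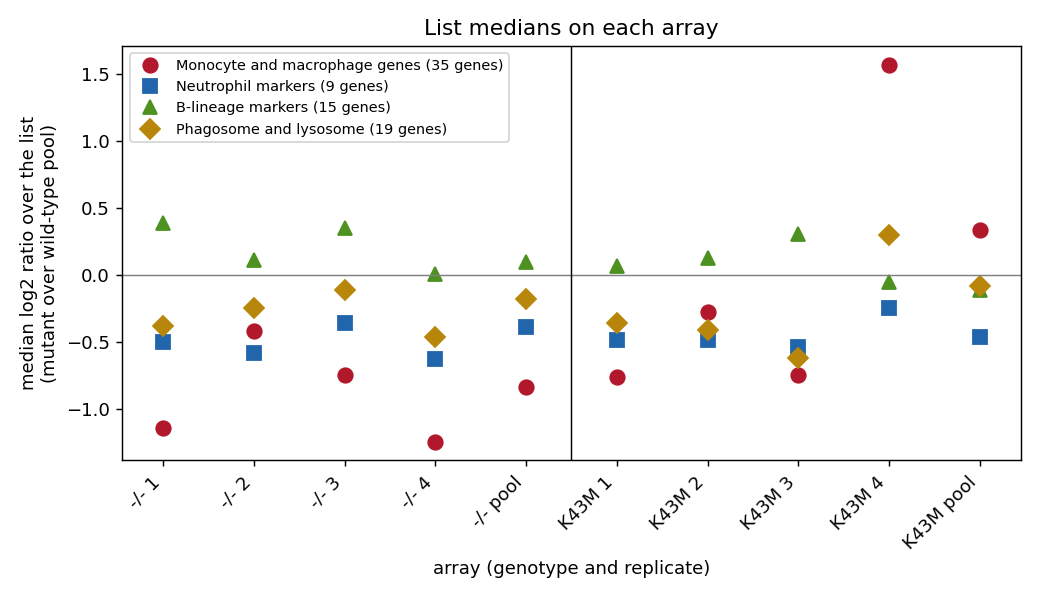
Median log2 ratio (mutant over wild-type pool) of 4 gene lists on each of the 10 arrays; circles are the 35 monocyte and macrophage genes, squares 9 neutrophil markers, triangles 15 B-lineage markers and diamonds 19 phagosome and lysosome genes. The circles lie below 0 in all single samples except Cdk6-K43M replicate 4, where their median is 1.57, and the squares lie below 0 on every array.

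Without replicate 4 the Cdk6-K43M median was -0.27, C1qb, Ctsl and Mrc1 fell and Axl rose, where 10.1% of all genes fell and 9.6% rose. The swapped Cdk6-K43M pool still holds its RNA. Without replicate 4 and that pool, an alternative chosen after seeing the data, the median was -0.52, and C1qb (-0.63, adjusted p = 0.0495) and Mrc1 (-1.22, adjusted p = 0.0442) fell, where 1.06% of all genes did. Cdk6-/- had 16 lower genes in that fit, where 2.17% of all genes fell, and 6 of the 7 were among them.

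The pool arrays carried the same RNAs with the dyes exchanged. If equal amounts went into a pool, which the labels do not state, its ratio should be near the mean of the 4 linear ratios. For these genes the median absolute difference between the pool and that mean was 0.142 in Cdk6-/- and 0.131 in Cdk6-K43M. Against the mean of Cdk6-K43M replicates 1 to 3 alone, the median absolute difference of the Cdk6-K43M pool was 0.929. Lyz1, for example, was at 0.95 in the Cdk6-K43M pool, and the mean of the 4 samples was 0.98.

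**Figure D4:**
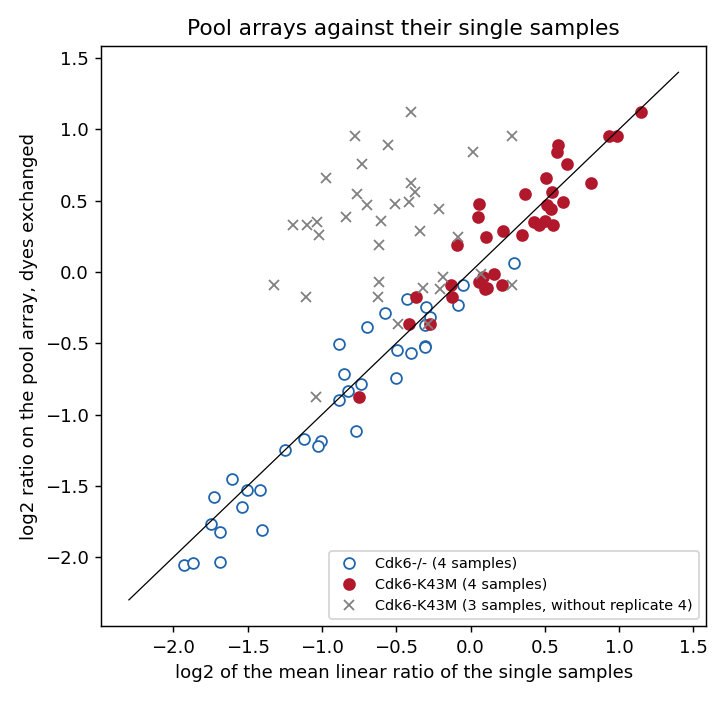
Log2 ratio of each of the 35 genes on its genotype's pool array (vertical) against the log2 of the mean linear ratio of the single samples (horizontal); the line marks equality. Cdk6-/- (open circles) and Cdk6-K43M with all 4 samples (filled circles) lie near the line, with median absolute differences of 0.142 and 0.131. Crosses without Cdk6-K43M replicate 4 lie mostly above the line.

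Between the mutants, none of the 35 genes passed at an adjusted p under 0.05 in the limma fit of the 8 single samples, where 0.513% of all genes did. At an unadjusted p under 0.05 there were 7, against 14.1% of all genes. Cdk6-K43M was fitted higher in 32 of 35 genes, with a median difference of 0.77 beside -0.01 over all genes. The groups overlapped in every one of the 35, whereas 8.18% of all genes had groups that did not. The highest difference was that of Trem2, 1.89 (95% interval 0.40 to 3.39, adjusted p = 0.261). Lyz1 followed with 1.84 (95% interval -0.07 to 3.75, adjusted p = 0.368) and Gpnmb with 1.82 (95% interval 0.29 to 3.34, adjusted p = 0.285).

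Without Cdk6-K43M replicate 4 the median difference was 0.36. Trem2 was then at 1.25, Gpnmb at 1.25 and Lyz1 at 0.98, with adjusted p of 0.34, 0.424 and 0.506. Each slide held both genotypes, and the median difference was 0.40 on slide 1 and -0.23 on slide 3, which do not hold replicate 4, and 1.49 on slide 2, which does. These slide values come from 1 or 2 samples a genotype and have no test.

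Genes that act with the receptors above were taken from lists fixed with earlier results known. Of 11 genes of Fc receptor signalling, 4 fell in Cdk6-/- and 3 in Cdk6-K43M, where 3.85% and 10.3% of all genes fell, and none rose. They were the phosphatase gene Ptpn6 (-0.63 and -0.39) and the kinase genes Lyn (-0.58 and -0.98) and Syk (-0.31 and -0.56) in both, and the inhibitory receptor gene Fcgr2b (-0.92) in Cdk6-/-. Lyn was at -1.67 and Syk at -0.68 in Cdk6-K43M replicate 4, so neither was up with the macrophage genes there. Pirb and Lilrb4a, inhibitory receptors of myeloid cells, were at 2.17 and 2.32 in that sample and below 0 in the other 7. Syk, Lyn and Ptpn6 also act in B cells.

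Of 19 phagosome and lysosome genes, 2 fell in Cdk6-/-, Lgmn (-1.33) and Atp6v0d2 (-1.22), and none rose, where 3.85% and 3.39% of all genes did. In Cdk6-K43M the genes that fell included Lgmn (-0.91) and Npc2 (-0.34), and Ctsc (0.86) rose, where 10.3% and 9.79% of all genes did. Ctsc, which encodes cathepsin C, read 0.56, 0.73, 0.64 and 1.15 in Cdk6-K43M and -0.05, -0.24, 0.11 and -0.07 in Cdk6-/-. Its groups did not overlap, and the difference between the mutants was 0.84 (adjusted p = 0.0415).

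Of 12 myeloid transcription and growth factor genes, none passed in Cdk6-/-, where 2 had an unadjusted p under 0.05, and in Cdk6-K43M Id2 (0.54) rose and Csf2rb (-0.68), a shared cytokine receptor chain, fell, with the same shares over all genes. Cebpb, a factor of monocyte differentiation, was at -1.21, -0.44, -1.16 and -0.90 in Cdk6-/- and at -0.78, -0.30, -0.75 and 1.95 in Cdk6-K43M. Spi1, which encodes PU.1, was at 0.43 in Cdk6-K43M replicate 4 and below 0 in the other 7 samples. Not all 12 genes went this way. In Cdk6-K43M replicate 4, 3 of the 12 were below 0, namely Csf2rb (-0.89), Csf3r (-0.40) and Irf8 (-0.15), and 4 were above 1. Irf8 was above the wild-type pool in Cdk6-/- replicates 1 to 4, at 0.32, 0.39, 0.12 and 0.30.

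Markers of other cell types were read from the same arrays. The summed linear level of the 35 genes was 0.416 to 0.775 times that of the wild-type pool in the single samples of Cdk6-/- and 0.566 to 2.62 times in those of Cdk6-K43M, and 0.599 and 1.18 times in the pools. The brightest of the 35 in wild type, Ctsb, Ctss and Lgals3, weigh most in this sum. Their fitted values in Cdk6-/- were -0.32, -0.41 and -1.98. For 9 of 15 neutrophil markers above background the summed level was 0.284 to 0.303 and 0.28 to 0.502 times, and 0.318 and 0.341 times in the pools. Ltf, Ctsg, Prtn3, Ly6g, Cebpe and Cxcr2 gave no kept probe. In each genotype 6 of the 9 fell, where 3.85% and 10.3% of all genes did, but S100a8, Ngp, Camp, Mpo, Mmp8 and Mmp9 passed the filter through the wild-type channel alone, which favours a fall. In Cdk6-K43M replicate 4 the markers went both ways, with S100a9 at -3.48 and S100a8 at -2.47 but Mmp8 at 1.89 and Mmp9 at 0.36. For the 15 B-lineage markers the sum was 1.16 to 1.41 times in Cdk6-/- and 1.01 to 1.25 times in Cdk6-K43M over the single samples, but 0.992 and 0.892 times in the pools, where the dyes are exchanged. In Cdk6-/- 1 of these 15 rose and 0 fell, near the 3.39% and 3.85% of all genes. In Cdk6-K43M 5 rose and 3 fell, where 9.79% and 10.3% of all genes did.

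For 9 of 12 dendritic cell markers the sum was 0.775 to 1.05 and 0.628 to 0.987 times the wild-type pool over the single samples. Of these, Ccr7, Cd74 and Flt3 fell in Cdk6-/- and Ccr7 and Cd74 in Cdk6-K43M, where 3.85% and 10.3% of all genes did. Xcr1, Clec9a and Cd209a gave no kept probe. Among 4 of 8 erythroid and megakaryocyte markers, Pf4, a platelet chemokine, was at 1.82 in Cdk6-K43M replicate 4 and between -2.35 and -1.06 in the other 7 samples. The sums of that list over the single samples were 0.873 to 1.92 and 0.703 to 1.63 times. Of the mast cell, T and NK cell and stromal lists 1 of 6, 4 of 9 and 3 of 7 genes were above background, with sums between 0.748 and 1.20 times in the single samples, and none passed. The part of other cell types in the results was not tested.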

How the data were processed

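Expression was measured on 10 two-colour Agilent arrays on 3 slides. Spot and background intensity values were deposited by the authors as scanner output (Agilent Feature Extraction, version 11.5.1.1), per the file headers. A further deposited table holds log2 values of the red and the green channel of each array, loess normalized per its name, and their difference served as an alternative. Median intensities were corrected by normexp (offset 50) and normalized by loess within arrays in limma 3.58.1 (R 4.3.3; files were read by data.table, version 1.17.8). Probes were named through RefSeq transcript accessions (GRCm38.p6), which matched 58.3%.

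A probe was kept if it was flagged above background on 3 or more of the 4 single arrays of a genotype or in 5 or more of the 10 wild-type channels, and the brightest kept probe stood for a gene. Mutants were compared with wild type over all 10 arrays with a dye term (7 residual degrees of freedom), and with each other over the 8 single arrays (6). The spread of a gene was estimated over both genotypes together, so Cdk6-K43M replicate 4 also entered the p-values of Cdk6-/-. The wild-type pool is 1 control sample without spread of its own, and the swapped pools count RNA of the same samples again. Both comparisons with wild type share it. P-values from limma with eBayes were adjusted by Benjamini-Hochberg over 22008 genes, and measure the spread between these samples. The number of arrays limits the precision. The fit was tested on simulated data for Cdk6-/- against wild type and between the mutants, not for Cdk6-K43M against wild type. The simulated noise was independent and held no outlying sample, so a sample such as Cdk6-K43M replicate 4 was not covered.

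The genes and lists were chosen with earlier results of these data known. Genes past the threshold in any comparison got the value of every array, as did the largest change of each role group, and up to 4 genes of each other list were named by smallest p, except for items not reported here. Cebpb, Spi1, Pirb, Lilrb4a, Pf4, S100a8, S100a9, Mmp8, Mmp9 and the gene values given for single samples of other genes were chosen after their values were seen. Alternatives covered background, normalization, source table, filter, probe choice, slide, swapped arrays, pairing and each sample left out.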

Additional observations from a re-analysis of the deposited data

Results flagged for a closer look

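In 70 groups of 4 samples (35 genes in 2 genotypes), a sample was marked when its gap to the nearest of the other 3 was large against the range of the group, which chance does in about 1 in 20 groups. There were 5 such values, and 4 of them lay in Cdk6-K43M replicate 4. Cx3cr1 was at 2.72 there, and between -0.60 and -0.28 in the other 3. Cd14 was at 1.99 against -0.76 to -0.34, and Ms4a7 at 1.97 against -1.40 to -0.86. Maf was at 1.57 against -0.11 to 0.10. The remaining one was Cd68 in Cdk6-/- replicate 2, at -0.50 against -1.67 to -1.55 in the other 3.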

How the results depend on the processing

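No fitted direction that had passed the threshold turned under any alternative run. In the main fit 7 of the 35 genes were lower in Cdk6-/-, where 848 of all 22008 genes fell. With Agilent's processed signals there were 2 (C1qc and Ctsl), where 578 of all genes fell. Median centring in place of loess gave 2 (Ctsl and Mrc1), where 293 fell. Slide as a block gave 1, where 330 fell. There were 11 without the swapped arrays and the dye term, where 1817 fell. There were 0 without the swapped array of that genotype, where 44 fell. Without Cdk6-K43M replicate 4 and its pool, an alternative chosen after seeing the data, there were 16, where 477 fell. Leaving out 1 sample at a time gave 1 to 20, where 331 to 1055 of all genes fell. Over the 18 alternatives the adjusted p ran from 0.0024 to 0.359 for Ctsl, 0.00998 to 0.409 for Mrc1, 0.0143 to 0.48 for Cd5l, 0.0113 to 0.472 for Trem2, 0.0132 to 0.516 for Lgals3, 0.00923 to 0.461 for C1qc and 0.016 to 0.459 for Apoe, each with the same sign in all. Of the 18 alternatives, Ctsl kept its call in 16, Mrc1 in 15, C1qc in 13 and Cd5l in 12. Trem2 and Apoe kept theirs in 11 each, and Lgals3 in 6. The median over the 35 genes was -1.45 with processed signals.

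In Cdk6-K43M the 1 lower gene became 0 without its swapped array, where 283 of all genes fell. It became 2 in the alternative chosen after seeing the data, where 234 fell. With median centring 1 gene (Axl) rose, where 5594 of all genes did. Leaving out 1 sample gave 1 to 3 lower and 0 to 1 higher, where 1857 to 2296 of all genes fell and 1735 to 2209 rose. Mrc1 ran from 0.00275 to 0.118. The median over the 35 genes was -0.04 without the swapped arrays and the dye term and -0.02 without that genotype's swapped array. Median centring moved the median of all genes to 0.11 in Cdk6-K43M and its calls from 2154 higher and 2273 lower to 5594 and 773, and those in Cdk6-/- from 745 and 848 to 509 and 293.

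Between the mutants the median difference was 1.52 with processed signals, 1.49 within slide 2 and -0.23 within slide 3, and 0.36 to 1.01 when each sample was left out. No gene of the 35 passed under any alternative. With the replicate block 0 passed and the median was 0.77, and over all genes 16 were higher and 21 lower in place of 58 and 55. Deviations of same-numbered samples correlated at 0.08, -0.07, 0.23 and 0.14, and not every sample correlated best with its own number, so the numbers were not taken to pair the samples. Over single genes, 1774 results under an alternative kept their side of the threshold, 43 lost it and 38 gained it, and the cause was not tested.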
